A study of Homo sapiens with 6 samples.

Results

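The genes described here are FN1 (fibronectin), the metalloproteinase inhibitors TIMP1, TIMP2 and TIMP3, the matrix proteins TGFBI and SPARC, the receptor CD44, and the transcription factors SNAI2, TWIST1 and PRRX1. They are 10 genes chosen by symbol as fibronectin, TIMP and mesenchymal genes, among 14883 named genes on the arrays. A gene with several probe sets is represented by its brightest, judged by the average of all 6 arrays without regard to group. The 10 symbols were put together with the result of this comparison known for several of them. Their changes are therefore described from a fit over all genes, and no count of them supports anything about the list. Of the 10 genes, 8 had a probe set with a symbol. TGFBI and SPARC had none and were not analysed here.

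The 6 samples came from SK-N-BE(2), a human neuroblastoma line long established in culture, grown in medium with serum and an insulin, transferrin and selenium supplement. Both groups were infected with a pLKO lentivirus. It carried a non-silencing hairpin in the control group (NSC, n = 3) and a hairpin against BRG1 in the other (shBRG1, n = 3). BRG1 is the ATPase motor of the SWI/SNF chromatin remodelling complex. Total RNA was collected at 48 h from the infection, with 200 ng going onto each array. The study is 1 cell line and, as labelled, 1 hairpin at 1 time, and the labels do not say whether the triplicates were separate cultures. If they were not, the p-values measure technical scatter. The transcript that the hairpin targets was not analysed here, so the samples are known by their labels alone.

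Fibronectin is a secreted dimer that cells assemble into fibrils through integrins, and its rise is a classical sign of the transition from an epithelial to a mesenchymal state. TIMPs are small secreted proteins that block the catalytic site of matrix metalloproteinases, and TIMP3, which stays bound to the matrix, also blocks several ADAM proteases. SNAI2 (SLUG), TWIST1 and PRRX1 are DNA-binding factors of the neural crest and of mesenchyme, and neuroblastoma cells can exist in an adrenergic or a mesenchymal state in which PRRX1 is a leading factor.

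The values are log2 expression values after RMA, a procedure that corrects background, gives all arrays the same distribution and summarises the probes of a probe set. The 6 arrays had medians between 3.77 and 3.84 over 52299 probe sets. Arrays of a group correlated at 0.991 to 0.993 across probe sets, and arrays of different groups at 0.986 to 0.988. Probes differ in how well they hybridise, so levels are compared between arrays and never between genes. The median named gene had a mean value of 5.09, and genes under it are called dim here, since no detection calls were used. Across all 14883 genes, limma called 2525 (17.0%) at an adjusted p of 0.05, and 1604, 1662 and 1633 without shBRG1 replicate 3, 2 or 1. The median change of all genes was 0.01.

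The promoters of FN1 and TIMP3 are shown because these genes had the largest rise and the largest fall of the group. Promoter windows from RefSeq (GRCh38.p14), reaching from 250 bases before to 50 bases after the gene start, were found for 5 of the 8 measured genes, which were FN1, TIMP1, TIMP3, CD44 and PRRX1. The runs below are the 250 bases before the start, 5′ to 3′ on the gene's strand, for FN1 at chr2:215436069-215436318 (minus strand) and for TIMP3 at chr22:32801455-32801704 (plus strand). Capitals mark the cyclic AMP element TGACGTCA, the GC box GGGCGG and the TATA core TATAA, each searched on both strands, and neighbouring GC boxes run together.
FN1: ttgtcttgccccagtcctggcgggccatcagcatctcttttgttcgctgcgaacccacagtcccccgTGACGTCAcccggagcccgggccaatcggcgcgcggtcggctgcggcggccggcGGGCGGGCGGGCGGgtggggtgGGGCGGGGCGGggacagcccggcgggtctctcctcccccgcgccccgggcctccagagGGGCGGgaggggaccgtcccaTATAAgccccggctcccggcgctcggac
TIMP3: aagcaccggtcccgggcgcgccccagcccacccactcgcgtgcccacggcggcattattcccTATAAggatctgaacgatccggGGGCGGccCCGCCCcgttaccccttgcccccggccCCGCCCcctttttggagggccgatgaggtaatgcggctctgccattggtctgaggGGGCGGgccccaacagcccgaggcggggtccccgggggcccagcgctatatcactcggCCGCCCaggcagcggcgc

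The FN1 window held the cyclic AMP element once, at position -183 from the gene start, and 1.85% of all 35116 windows of this length held it. It also held a TATA core at -28 and 6 GC boxes. The TIMP3 window held 5 GC boxes and a TATA core at -188, and no cyclic AMP element. GC boxes stood in 4 of the 5 windows, against 45.0% of all windows, and a TATA core in 2, against 20.4%. The GC box and TATA motifs were added after the windows were seen, so their shares are a description only. No motif share was matched for GC content. The E-box letters CAGGTG, which SNAI factors are known to bind, were in 0 of the 5 windows and in 20.6% of all windows. Any E-box, CANNTG, was likewise in 0 of 5, against 68.7%, and the AP-1 element TGANTCA in 0 of 5, against 7.71%. These are matches of letters in short windows and say nothing about the binding of a factor.

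FN1 was the member that rose, TIMP3 fell almost as far, and the other changes were smaller. Among the 8 measured genes, 1 was called higher (FN1) and 4 lower (TIMP3, SNAI2, TIMP2 and CD44), while TIMP1, TWIST1 and PRRX1 did not pass an adjusted p of 0.05. Over all genes, 9.78% were called higher and 7.19% lower. The groups did not overlap for 6 of the 8 genes, against 35.5% of all genes. The median change of the 8 genes was -0.14. Since the symbols were picked with this comparison in view, nothing is read from these counts.

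**Figure D1:**
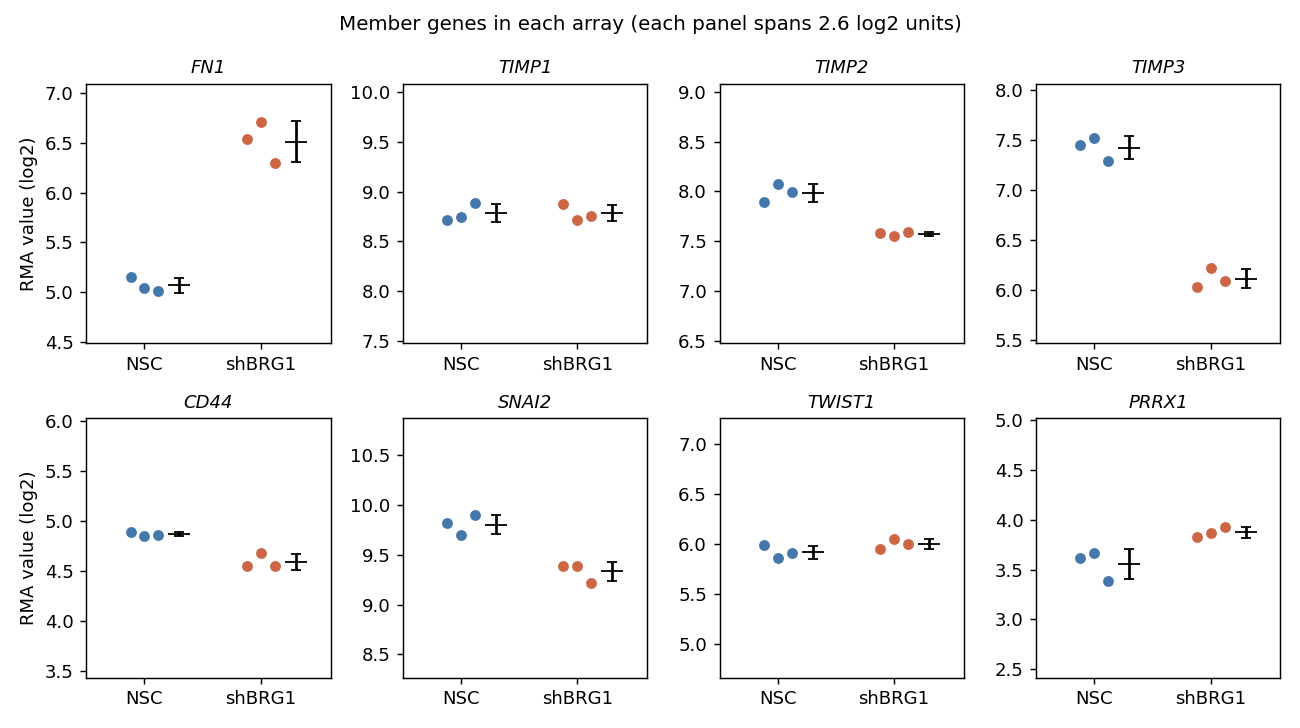
RMA values (log2) of the 8 measured genes in each of the 3 NSC and 3 shBRG1 arrays, with the mean and SD of each group beside the points; all panels span the same number of log2 units. The shBRG1 arrays lie above the NSC arrays for FN1 and PRRX1, below them for TIMP2, TIMP3, CD44 and SNAI2, and overlap them for TIMP1 and TWIST1.

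FN1 encodes fibronectin itself. Its log2 values were 5.16, 5.05 and 5.01 in the NSC arrays and 6.54, 6.70 and 6.30 in the shBRG1 arrays. Every shBRG1 array was higher than every NSC array by more than the spread of either group. The mean went from 5.07 ± 0.08 to 6.51 ± 0.20 (SD, n = 3), a log2 change of 1.44 (SE 0.11, 95% interval 1.18 to 1.70, adjusted p = 4.1e-04 in limma), or 2.71-fold. The NSC mean lay at the level of the median named gene, which is not a measure of background. Without detection calls, how far the control level lay above background, and whether the fold is understated, was not tested. The change was between 1.34 and 1.55 under the 14 alternatives run. In a culture measured in bulk, a change in every cell and a change in the share of cells that express the gene cannot be told apart, and this holds for all genes below.

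The TIMP genes went separate ways. TIMP3 had values of 7.45, 7.52 and 7.29 in NSC and 6.02, 6.22 and 6.09 in shBRG1. The ranges were far apart, with means of 7.42 ± 0.12 and 6.11 ± 0.10 (SD, n = 3). TIMP3 was 2.48-fold lower, a log2 change of -1.31 (SE 0.09, 95% interval -1.52 to -1.11, limma adjusted p = 2.9e-04).

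TIMP2, which besides inhibiting metalloproteinases takes part in the activation of pro-MMP2, fell less. Its values were 7.89, 8.07 and 8.0 in NSC and 7.58, 7.56 and 7.60 in shBRG1. The shBRG1 arrays stood close together (SD 0.02) and all below the lowest NSC array. The change was -0.41 (SE 0.07, 95% interval -0.58 to -0.24, limma adjusted p = 0.0088), which is 1.33-fold lower.

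TIMP1, a broad inhibitor that is often induced by cytokines, had values of 8.72, 8.75 and 8.88 in NSC and 8.87, 8.72 and 8.75 in shBRG1. The groups overlapped almost wholly. The change was 0.00 (SE 0.08, limma adjusted p = 1.00), with a 95% interval of -0.18 to 0.18, and its sign differed between alternatives (-0.06 to 0.05). A shift smaller than that interval was not detectable with these arrays. Within the arrays, the shift of TIMP3 relative to TIMP1 was -1.31 (SD 0.20 in NSC and 0.17 in shBRG1), and relative to TIMP2 it was -0.90 (SD 0.13 and 0.11). These shifts exceed the SD of either group, and a constant added to all values of an array would not alter them. They were not tested. TIMP4 had a change of -0.08 and was dim (3.45 ± 0.22 in NSC, SD, n = 3; limma adjusted p = 0.77).

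TIMP3 was the only member with more than 1 probe set. The probe set that was set aside was dimmer, and it fell as well. It read 4.94, 4.81 and 4.74 in NSC and 4.04, 3.81 and 3.90 in shBRG1, again without overlap. The log2 change of this second probe set was -0.92 (SE 0.10, adjusted p = 0.0058 in limma over every probe set), smaller than the -1.31 of the kept one. With both averaged, TIMP3 had a change of -1.11.

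Each of these TIMP genes overlaps the span of another gene in RefSeq, and the arrays' own annotation does not say here which strand or exon a probe set covers. TIMP1 lies in the span of SYN1, which encodes synapsin I, and SYN1 had a change of -0.03 (adjusted p = 0.86). TIMP3 lies in the span of SYN3, another synapsin gene. SYN3 was dim, at 3.67 ± 0.13 in NSC and 3.55 ± 0.24 in shBRG1 (SD, n = 3), with overlapping groups and a change of -0.12 (adjusted p = 0.59). The fall at TIMP3 was not seen at the SYN3 probe set. A probe set this dim may not show a fall, so whether the 2 genes moved apart was not tested. TIMP2 overlaps CEP295NL, and here the neighbour moved alike. CEP295NL read 4.04, 4.31 and 4.18 in NSC and 3.81, 3.70 and 3.78 in shBRG1, a change of -0.41 (SE 0.09, limma adjusted p = 0.018), next to -0.41 for TIMP2. CEP295NL was dim, and its call was lost without NSC replicate 3 or shBRG1 replicate 2 or 3 and with every probe set tested (adjusted p up to 0.062). Whether the probe sets of TIMP2 and CEP295NL read separate transcripts was not tested. The span of FN1 overlaps that of ATIC, a purine synthesis gene, which rose by 0.41 (from 9.59 ± 0.04 to 10.01 ± 0.06, SD, n = 3; limma adjusted p = 0.0068).

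**Figure D2:**
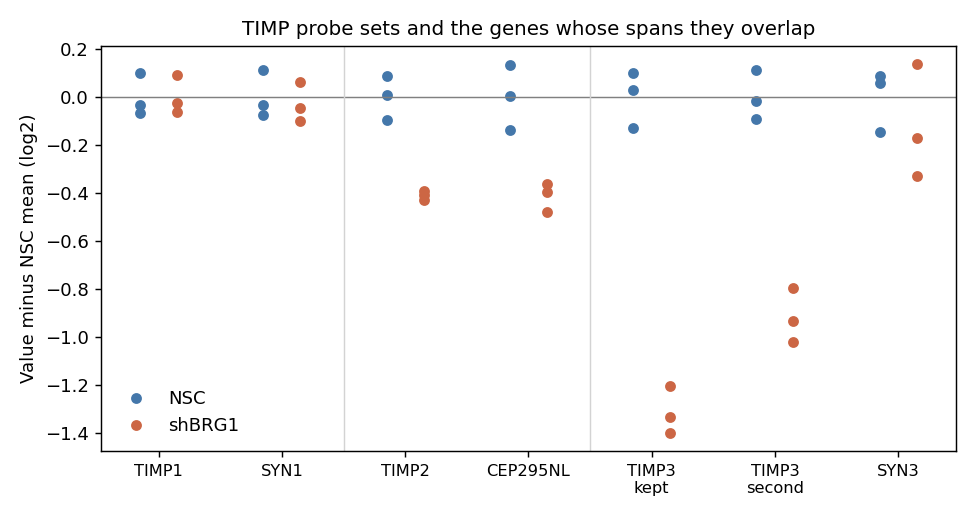
Values of the TIMP probe sets and of the genes whose spans they overlap, each minus its NSC mean (log2), in the 3 NSC and 3 shBRG1 arrays. Both TIMP3 probe sets lie far below 0 in shBRG1 while SYN3 scatters around it, TIMP2 and CEP295NL fall by about the same amount, and TIMP1 and SYN1 overlap between groups.

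CD44 is the main cell-surface receptor for hyaluronan and a marker of mesenchymal neuroblastoma cells. It read 4.89, 4.85 and 4.86 in NSC and 4.55, 4.68 and 4.55 in shBRG1, with no overlap. The change was small, -0.28 (SE 0.07, 95% interval -0.44 to -0.11, limma adjusted p = 0.033), or 1.21-fold lower, in a dim probe set (mean 4.73). The call was lost when any 1 array other than shBRG1 replicate 2 was left out, after centring, with trend and robust options, and with every probe set tested (adjusted p 0.025 to 0.11 over the alternatives). The direction was the same in all of them.

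SNAI2, a zinc finger repressor of the neural crest that represses epithelial genes, fell. Its values were 9.81, 9.70 and 9.89 in NSC and 9.39, 9.39 and 9.22 in shBRG1. The highest shBRG1 array lay below the lowest NSC array. The change was -0.47 (SE 0.08, 95% interval -0.67 to -0.27, limma adjusted p = 0.0092), from 9.80 ± 0.10 to 9.33 ± 0.10 (SD, n = 3), which is 1.38-fold lower. It stayed past the threshold in the 14 alternatives, with adjusted p-values up to 0.038.

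TWIST1, a basic helix-loop-helix factor of cranial mesenchyme, read 5.99, 5.86 and 5.91 in NSC and 5.95, 6.05 and 6.0 in shBRG1. These ranges overlapped. Its change was 0.08 (SE 0.07, 95% interval -0.08 to 0.24, limma adjusted p = 0.49), so a fall as large as that of SNAI2 lies outside the interval.

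PRRX1, the homeobox factor of the mesenchymal neuroblastoma state, had a dim probe set (mean 3.72). It read 3.62, 3.67 and 3.38 in NSC and 3.82, 3.87 and 3.93 in shBRG1. All shBRG1 arrays were higher than all NSC arrays, which had an SD of 0.15. The change was 0.32 (SE 0.09, 95% interval 0.10 to 0.53, limma adjusted p = 0.052) and did not pass. It passed after centring, after cyclic loess and with array weights (adjusted p 0.034 to 0.15 over the alternatives).

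**Figure D3:**
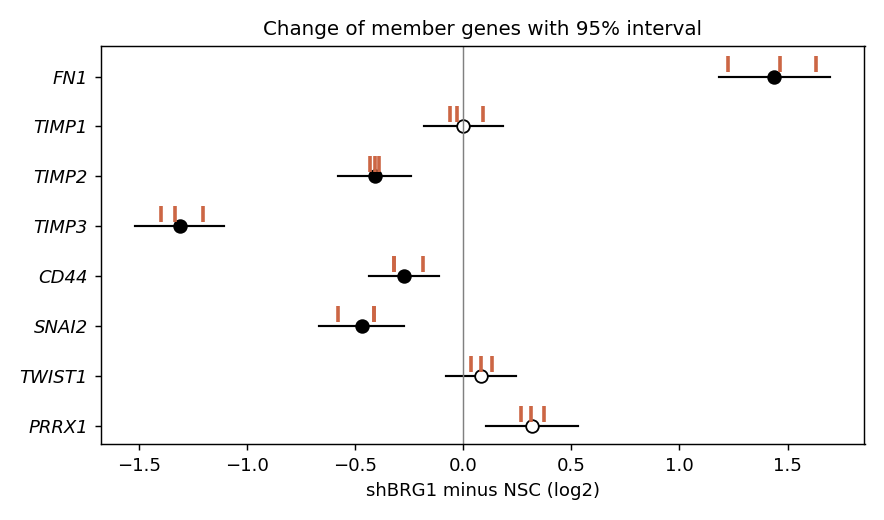
Log2 change of the 8 measured genes, shBRG1 minus NSC, as a circle with its 95% interval; filled circles passed an adjusted p of 0.05, and the short ticks above each line are the 3 shBRG1 arrays, each minus the NSC mean. FN1 stands at 1.44 and TIMP3 at -1.31, while the other 6 genes lie between -0.47 and 0.32.

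Genes with the most similar profile were found among brighter genes by the root mean square difference of centred log2 values over the 6 arrays. For FN1 these were PLPPR2 (difference 0.08), LINC00265 (0.10) and TMCC1-DT (0.14), with changes of 1.39, 1.53 and 1.26. The profile of TIMP3 was closest to that of CDK6, a kinase of the G1 phase (0.06, change -1.34), TPMT, a thiopurine methyltransferase (0.07, -1.25), and CERS6, a ceramide synthase (0.08, -1.40). SNAI2 was nearest to RGS16, a regulator of G protein signalling (0.03, -0.43), PCGF3, a Polycomb group protein (0.03, -0.49), and ZNF511 (0.04, -0.44). TIMP2 was nearest to LRRC57 (0.04, -0.39), the caspase inhibitor XIAP (0.04, -0.42) and APPBP2 (0.05, -0.39). For CD44 they were NUBP1, SUPT16H and JKAMP, at 0.02 each, with changes between -0.29 and -0.25. With 6 arrays in 2 groups such likeness mostly reflects the size of the change.

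The related lists were written from general knowledge but with earlier results of these data known, and the members themselves are not in them. Their counts stand beside 9.78% higher and 7.19% lower over all genes, and nothing particular to a list is read from them. Genes of fibronectin binding and focal adhesion moved in both directions. Of 26 listed genes 12 were measured, of which 3 rose, 2 fell and 7 did not pass, with a median change of 0.19. The integrin genes of the list were not analysed here. SDC4, the syndecan that acts with integrins as a receptor for fibronectin, had the largest change. It was lower by -0.86 (SE 0.09, limma adjusted p = 0.0016), from 7.15 ± 0.05 to 6.29 ± 0.16 (SD, n = 3), opposite in direction to FN1. The adaptor PXN (paxillin) fell by 0.37 on the log2 scale. The syndecans SDC1 (0.30) and SDC2 (0.26) and the focal adhesion kinase gene PTK2 (0.24) rose. These 3 rises did not pass once a single array, whichever it was, had been left out, nor under cyclic loess (0 higher each time), and 5 were higher with dim genes left out. SDC1 also lost its call with trend and robust options. PXN lost its call without any 1 array other than NSC replicate 2. SDC4 stayed past the threshold throughout.

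Among 33 measured of 64 listed matrix and matrix assembly genes, 3 rose, 3 fell and 27 did not pass, with a median change of -0.04, and 20 of the 33 were dim. The small proteoglycans split. Biglycan (BGN) fell from 8.92 ± 0.03 to 8.39 ± 0.08 (SD, n = 3), a change of -0.53 (SE 0.07, limma adjusted p = 0.0028). Decorin (DCN) rose by 0.44 (SE 0.08, limma adjusted p = 0.0092) and lumican (LUM) by 0.39. THBS3, a thrombospondin, rose by 0.49 (SE 0.07, limma adjusted p = 0.0042). The large proteoglycan versican (VCAN) had a change of -0.43, and FBLN1, a fibulin that binds fibronectin, one of -0.32. For LUM the call ended when NSC replicate 2 or 3 or shBRG1 replicate 1 or 2 was left out, and for VCAN when NSC replicate 2 or 3 or shBRG1 replicate 1 or 3 was. FBLN1 lost it after centring and without any 1 array other than shBRG1 replicate 2, and when NSC replicate 2 or shBRG1 replicate 1 or 3 was left out the count of lower genes was 1. With dim genes left out 5 were higher. FBN1 (0.21), TNC (0.03), THBS1 (-0.11), LOX (-0.07) and CCN2 (0.16) were among those not past the threshold.

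The enzymes that TIMPs inhibit are matrix metalloproteinases and ADAM proteases. The list holds such proteases, further inhibitors and related genes such as BSG and PCOLCE. Of its 53 genes 31 were measured, of which 4 rose, 1 fell and 26 did not pass, with a median change of -0.04, and 16 were dim. RECK, a membrane-anchored inhibitor of metalloproteinases, rose by 0.36 (SE 0.09, adjusted p = 0.038). MMP24, a membrane-type metalloproteinase of the nervous system, rose by 0.35 (SE 0.08, adjusted p = 0.020). ADAM23 (0.33) and ADAM22 (0.25), neuronal ADAM proteins without protease activity, also rose, and MMP8, a dim probe set (2.94 ± 0.09 in NSC, SD, n = 3), fell by 0.28 on the log2 scale. All 5 of these limma calls were weak. RECK and ADAM22 lost theirs whichever array was left out and under cyclic loess, and ADAM22 also after centring. ADAM23 lost its call after cyclic loess and without any 1 array other than NSC replicate 3. MMP24 lost its call when NSC replicate 1 or 2 or shBRG1 replicate 2 or 3 was left out. It also lost it with its probe sets averaged, where its change was 0.09 (limma adjusted p = 0.41). MMP8 lost its call without any 1 array and under both other scalings. With 1 array left out, 0 to 2 genes were higher and 0 lower. ADAM17 and ADAM10, shedding proteases of which TIMP3 is a known inhibitor, had changes of 0.05 (SE 0.07) and 0.04 (SE 0.07), and MMP14, the activator of pro-MMP2, one of 0.16 (SE 0.12).

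Of 24 other transcription factors listed for the epithelial-mesenchymal transition 18 were measured, of which 0 rose, 4 fell and 14 did not pass, with a median change of -0.08, against 9.78% higher and 7.19% lower over all genes. At an unadjusted p of 0.05 in limma, 0 were higher and 5 lower. The one added at that level was GRHL1 (-0.41, limma adjusted p = 0.15), a dim gene whose groups overlapped. GRHL1 is an epithelial factor, and the list also holds other GRHL genes and OVOL genes. Its counts are therefore not counts of mesenchymal factors alone. ETS1, a factor that activates protease genes, fell most, from 6.21 ± 0.13 to 5.54 ± 0.08 (SD, n = 3), a change of -0.67 (SE 0.09, limma adjusted p = 0.0028). SOX9, a partner of SNAI2 in the neural crest, had a change of -0.49 (SE 0.07, adjusted p = 0.0042), from 8.04 ± 0.08 to 7.55 ± 0.04 (SD, n = 3). TCF4, a dimerisation partner of TWIST1, had a change of -0.42 (adjusted p = 0.0059), and ZEB1, a repressor of E-cadherin, one of -0.35 (adjusted p = 0.010). These 4 calls held in the 14 alternatives. SNAI1 (-0.04), TWIST2 (0.05) and ZEB2 (0.02) did not pass, and of the 18 genes 8 were dim.

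Among TGF-beta signalling genes, of which FN1 and SNAI2 are known targets, 17 of 30 were measured. Of these 2 rose, 3 fell and 12 did not pass, with a median change of -0.05. The ligand and receptor genes TGFB1 to TGFBR3 of the list were not analysed here. SMAD6, an inhibitory SMAD that mainly restrains BMP signalling, rose from 6.62 ± 0.07 to 7.61 ± 0.19 (SD, n = 3), a change of 0.99 (SE 0.10, limma adjusted p = 0.0014). BAMBI, a decoy receptor, had a change of -0.46 (adjusted p = 0.0081). SMAD2, a receptor-activated SMAD, fell by 0.33 (adjusted p = 0.011), SKIL, a repressor of SMAD activity, fell by 0.35, and SMAD4, the shared partner of SMADs, rose by 0.30. The call of SKIL ended when any 1 NSC array or shBRG1 replicate 1 was left out. SMAD4 lost it after cyclic loess and without any 1 array other than NSC replicate 3, which left 1 gene higher after cyclic loess and without NSC replicate 2 or shBRG1 replicate 1, 2 or 3. Testing bright genes alone gave 4 higher, as did trend and robust options. SMAD3 (-0.05) and SMAD7 (0.04) did not pass.

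Of 21 listed genes of hyaluronan metabolism and CD44 partners 18 were measured, of which 1 rose, 1 fell and 16 did not pass, with a median change of -0.03. HMMR, a hyaluronan receptor that also serves the mitotic spindle, fell by 0.81 on the log2 scale (SE 0.07, adjusted p = 5.1e-04), and the surface glycoprotein CD24 rose by 0.39 (SE 0.06, adjusted p = 0.0066). The hyaluronan synthase HAS2 had a change of 0.30 (adjusted p = 0.051), which passed after centring, with dim genes left out, with trend and robust options and without shBRG1 replicate 3, and then 2 genes were higher. The ERM proteins that tie CD44 to actin, EZR (-0.03), RDX (-0.04) and MSN (-0.05), did not pass.

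Other factors of the mesenchymal neuroblastoma state, of which 25 of 33 were measured, gave 1 higher and 6 lower calls, with 18 not past the threshold and a median change of -0.09, against 9.78% higher and 7.19% lower over all genes. Of the 25 genes 13 were dim, IRF1 among them. FOSL2 (-0.56, SE 0.08, limma adjusted p = 0.0030) and SOX9 fell in every alternative, and SOX9 is the same gene already counted among the lower transition factors above. AEBP1 (-0.53, SE 0.12, limma adjusted p = 0.022) and JUN (-0.41, SE 0.11, adjusted p = 0.038) were lower too, as were IRF1 and MAML2 (-0.33 and -0.31), and DCAF6 rose (0.30). The call of AEBP1 ended when NSC replicate 2 or 3 or shBRG1 replicate 2 or 3 was left out. JUN and IRF1 lost theirs without any 1 array other than shBRG1 replicate 2. JUN also lost its call after centring, and IRF1 with trend and robust options. The call of MAML2 ended without any 1 array other than NSC replicate 2 and after centring. That of DCAF6 ended without any 1 array and after cyclic loess. With its probe sets averaged MAML2 had a change of -0.09 (adjusted p = 0.61). With 1 array left out 2 to 4 genes were lower and 0 higher. The intermediate filament gene VIM had a change of -0.08 (SE 0.08, adjusted p = 0.53). The Hippo and Notch factors YAP1 (-0.21), WWTR1 (0.14) and NOTCH2 (0.01) were dim and did not pass.

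**Figure D4:**
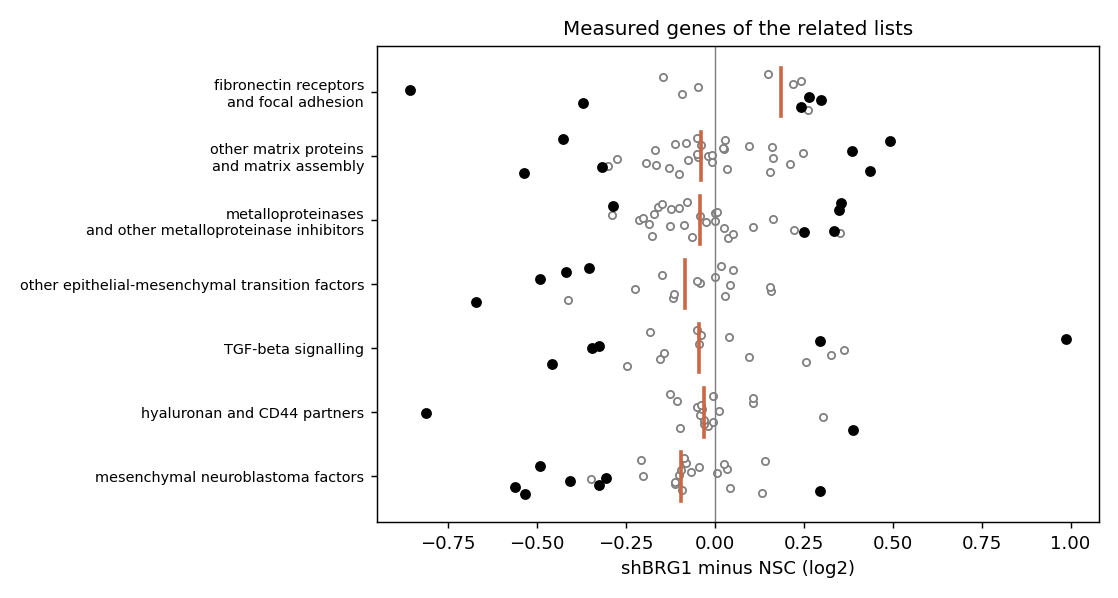
Log2 change, shBRG1 minus NSC, of every measured gene of the 7 related lists; filled circles passed an adjusted p of 0.05, open ones did not, and the coloured bar is the list median. Filled circles lie on both sides of 0 in all lists but that of other transition factors, where the 4 filled circles are all below 0; SMAD6 (0.99) and SDC4 (-0.86) lie furthest out.

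Of 15 adrenergic neuroblast markers, which fit the labelled line, 13 were measured. Their probe sets had means between 7.66 and 11.3, a description only, since levels of separate probes are not compared. Of the 13, 8 fell and 0 rose in limma, against 7.19% lower and 9.78% higher over all genes, with 1 higher and 8 lower at an unadjusted p of 0.05. RET (-0.59), PHOX2A (-0.51), GATA2 (-0.50), CHGA (-0.48), DLK1 (-0.43) and HAND2 (-0.38) kept their lower calls in all 14 alternatives. The fall of CHGB (-0.30) did not pass without any 1 array other than shBRG1 replicate 2 (limma adjusted p up to 0.083). ISL1 (-0.44) had a change of -0.23 with its probe sets averaged (limma adjusted p = 0.053). GATA3 (0.21), TH (0.11), DBH (0.08), STMN2 (0.07) and DDC (0.06) did not pass. GATA3 was called higher with dim genes left out and with trend and robust options. Fibroblast markers, which could bear on FN1, were covered by 3 of 10 listed genes (DCN, LUM and THY1), of which 2 rose, DCN and LUM, or 1 where LUM lost its call as above. Their mean level was 6.92 to 7.09 in NSC arrays and 7.18 to 7.32 in shBRG1 arrays. THY1 had a change of -0.07, and the collagen and PDGF receptor genes of that list were not analysed here. The part of such cells in the result for FN1 was not tested. Schwann and glial markers (6 of 10 measured, 4 dim) had mean levels of 4.33 to 4.38 in NSC and 4.20 to 4.22 in shBRG1, with 1 lower call, FOXD3 (-0.24). That call was lost in 11 of 13 alternatives, among them every single array left out, to 0 calls without any 1 other than shBRG1 replicate 2, where another marker, S100B, passed. Endothelial markers (6 of 9 measured, 5 dim) and leukocyte markers (4 of 9, 3 dim) gave 0 calls, with 0 and 1 gene under an unadjusted p of 0.05 in limma. Epithelial markers (6 of 7, 4 dim) gave 0 calls as well, with 1 gene, CLDN3 (-0.31), lower at an unadjusted p of 0.05 in limma. CLDN3 was called lower with dim genes left out and with trend and robust options, and CLDN4 (-0.28, dim) without NSC replicate 2.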

How the data were processed

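The authors deposited log2 expression values per probe set for 6 arrays. The submitters' processing notes name RMA with oligo 1.27 and limma 3.19 under R 3.1.0. The sources used here give no genome build. RMA equalises the arrays, so a shift of all genes together is not seen, and changes of dim genes may be understated. The log2 scale was read from the range of the values.

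A platform annotation named 15828 of 52299 probe sets (0 with several symbols). All 15828 were matched by gene identifier to RefSeq, whose symbol was used. The brightest probe set per gene was kept. In limma 3.58.1 (R 4.3.3), lmFit and eBayes compared shBRG1 with NSC over 14883 genes with 2-sided tests and Benjamini-Hochberg adjustment. The script was first tested on simulated data. With 3 arrays per group, exact permutation can give no p under 0.1 and was not used. The number of arrays limits the precision (median SE 0.09).

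All members are named. The called genes of each list are named, with some uncalled ones by role. Members, lists and tests were chosen with earlier results of these data known, and the GC box and TATA motifs after the windows were seen. Alternatives were centring on array medians, cyclic loess, leaving out dim genes, averaging probe sets, trend and robust options, array weights, a block for the replicate number, omission of each array in turn, and testing every probe set. Figures used matplotlib 3.10.9.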

Additional observations from a re-analysis of the deposited data

How the results depend on the processing

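With 1 array left out, the number of genes called was 1604 to 1840 instead of 2525. It was 1608 with the replicate number as a block and 1259 with every probe set tested. The replicate numbers do not pair the samples by any label, and the deviations of same-numbered arrays from their group means correlated at -0.04, -0.14 and -0.03, so the block result is given only here. The count of higher members was 2 after centring, after cyclic loess and with array weights, where PRRX1 joined FN1, and 1 in each fit with 1 array left out. The count of lower members was 3 or 4. The changes of the 8 members were recomputed under up to 14 alternatives each, and 98 of these 110 values were on the same side of the threshold. The other 12 were 9 of CD44, which fell short, the block among them, and 3 of PRRX1, which passed. The block ended no call of FN1, TIMP2, TIMP3 or SNAI2. CD44 and PRRX1 have no value with dim genes left out, being under the limit. Median changes of all genes stayed between 0.00 and 0.06, and the causes of the differences were not tested. With 3 arrays per group and no detection calls, small changes of dim probe sets are the least certain.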
